A study of Mus musculus with 24 samples.

Results

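CC chemokines are small secreted proteins that direct leukocyte movement, and 9 genes of this family were described in the spinal cord of mice with experimental autoimmune encephalomyelitis (EAE), a T cell-driven model of multiple sclerosis. The 9 genes were 7 ligands (Ccl2, Ccl7, Ccl12, Ccl8, Ccl3, Ccl4 and Ccl5) and 2 receptors (Ccr1 and Ccr2), chosen by name from the 17097 genes with a probe set of their own. They had 13 such probe sets on the array, and the one that was brightest on average over the 24 arrays stood for each gene. Spinal cord RNA of 24 female mice, 8 to 12 weeks old, was measured on Affymetrix mouse arrays with 1 array per mouse. Naive wild-type mice (n = 5) and naive mice labelled Act1 ko (n = 5) were left untreated. Wild-type mice received MOG35-55-reactive T cells polarized with IL-12 and an antibody to IL-23p19 (Th1 recipients, n = 5) or with IL-23 (Th17 recipients, n = 5), and mice labelled Act1 ko received the Th17 cells only (n = 4). All recipients, and no naive mice, were irradiated with 500 rad 4 h before the transfer, so irradiation and transferred cells cannot be told apart in a comparison with naive mice. The methods give killing at 12 days after transfer, while the labels give the onset of symptoms and the paper the peak of disease. Act1 (gene Traf3ip2) is the adaptor through which the IL-17 receptor signals, and neither the deleted segment nor the construct of the ko allele is given for these mice in the sources used here.

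CC ligands bind G protein-coupled receptors on leukocytes and steer the cells along a gradient. Ccl2, Ccl7 and Ccl12 act through Ccr2, which inflammatory monocytes carry and need to leave the bone marrow and enter the inflamed central nervous system. Ccl8 belongs by sequence to the same monocyte chemoattractant group, and Ccl3, Ccl4 and Ccl5 act on monocytes, activated T cells and other leukocytes. IL-17 is known to raise Ccl2 and Ccl7 in astrocytes and other tissue cells.

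Most of the ligand genes lie close together on chromosome 11. The RefSeq promoter table (GRCm38.p6) held 5 of the 9 members, matched by symbol: Ccl12, Ccl8, Ccl3, Ccr1 and Ccr2. The 250 bases before the transcription start are shown for 3 ligands, because Ccl12 differed between Th17 and Th1 recipients (below) while its chromosomal neighbour Ccl8 and the more distant Ccl3 did not pass that test. They are written 5′ to 3′ along the gene, and capitals mark motif matches.
Ccl12 (chr11:82101595-82101844, plus strand): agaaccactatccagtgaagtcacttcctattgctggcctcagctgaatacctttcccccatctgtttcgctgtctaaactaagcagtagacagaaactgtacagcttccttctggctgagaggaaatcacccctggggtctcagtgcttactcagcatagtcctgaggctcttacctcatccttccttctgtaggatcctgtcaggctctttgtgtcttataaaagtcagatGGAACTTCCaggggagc
Ccl8 (chr11:82114935-82115184, plus strand): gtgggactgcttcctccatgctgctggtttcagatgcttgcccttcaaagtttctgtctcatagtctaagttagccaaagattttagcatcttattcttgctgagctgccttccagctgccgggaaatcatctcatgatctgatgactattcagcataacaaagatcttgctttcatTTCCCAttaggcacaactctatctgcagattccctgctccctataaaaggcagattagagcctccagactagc
Ccl3 (chr11:83649379-83649628, minus strand): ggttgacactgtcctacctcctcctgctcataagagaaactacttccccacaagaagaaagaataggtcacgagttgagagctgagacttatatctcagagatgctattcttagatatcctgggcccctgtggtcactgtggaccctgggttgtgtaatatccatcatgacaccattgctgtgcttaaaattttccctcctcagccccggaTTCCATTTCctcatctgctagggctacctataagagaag
Both strands were searched for 4 motifs. The NF-kB motif GGNNNTTCC was found in Ccl12 from position -17 to -9 before the start, where its letters match on both strands, and 15.66% of the 32851 promoters in the table hold it in this window. The RBP-J core TGGGAA, read on both strands, was found in Ccl8 from -73 to -68 on the opposite strand and is held by 21.59% of promoters. The interferon-stimulated response element GAAANNGAA was found on the opposite strand in Ccl3 from -39 to -31 and in Ccr2 from -86 to -78, and 7.13% of promoters hold it. The STAT motif TTCNNNGAA, held by 7.02%, was in none of the 5, and Ccr1 held none of the 4 motifs. These matches describe the letters in the window and not binding.

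The deposited values are log2 intensities normalized to a common scale, with array medians of 3.46 to 3.57. Markers of neurons, oligodendrocytes and astrocytes averaged between 8.85 and 10.96 on every array, so the labelled tissue carried its defining transcripts. Traf3ip2 averaged 4.29 ± 0.20 (SD, n = 5) in naive wild-type mice and 5.56 ± 0.24 (n = 5) in naive mice labelled Act1 ko, a log2 difference of 1.27 ± 0.11 (SE, limma adjusted p = 4.66e-08). The deleted gene was thus higher, not lower, in the mice labelled ko, and since the place of its probe set relative to the deletion is not given, these values do not check the label. In the 4 ko-labelled mice given Th17 cells, no gene of 17097 passed the limma test against naive mice labelled Act1 ko (smallest adjusted p = 0.0704). The T cell markers of these 4 Th17 recipients averaged 3.69 to 3.85 per array, against 3.65 to 3.88 in the naive mice of that label and 5.998 to 6.222 in wild-type Th17 recipients. Th1 recipients 4 and 5 had the lowest Ccr1 of their group, and results that rest on them are given with and without them.

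Ccl2, the main ligand of Ccr2, was the member with the second largest rise in Th17 recipients. Its log2 values in naive wild-type mice were 3.00, 2.86, 2.96, 2.72 and 2.87. In Th1 recipients they were 8.26, 7.84, 7.80, 7.01 and 7.88, and in Th17 recipients 9.10, 9.19, 9.20, 8.98 and 8.999. The 3 groups did not overlap, and the Th17 recipients lay within 0.22 of each other while the Th1 recipients spanned 1.25. Against naive mice Ccl2 rose by a log2 difference of 6.21 ± 0.15 (SE) in Th17 recipients, or 74.2-fold, with a limma adjusted p of 1.8e-22. In Th1 recipients it rose by 4.88 ± 0.15, or 29.4-fold (limma adjusted p = 2.99e-20). All 9 members averaged below the array medians in naive mice, so these folds are limited by the background signal there.

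Ccl7, a second Ccr2 ligand, set the recipient groups furthest apart. It measured 2.58, 2.73, 2.59, 2.73 and 2.78 in naive mice. In Th1 recipients it measured 6.60, 5.38, 6.21, 5.49 and 5.85, and in Th17 recipients 7.67, 8.06, 7.87, 7.84 and 7.86. Every Th17 recipient was above every Th1 recipient by at least 1.07. The rise over naive mice was 5.18 ± 0.15 in Th17 recipients and 3.22 ± 0.15 in Th1 recipients.

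Ccl12, a Ccr2 ligand found in mice, had the same order of groups. Naive mice lay between 2.40 and 2.59. Th1 recipients measured 6.53, 5.69, 6.32, 6.83 and 6.34, and Th17 recipients 7.43, 7.28, 7.33, 6.97 and 7.18. The 2 recipient groups came within 0.14 of each other but did not overlap. Ccl12 rose by 4.76 ± 0.13 in Th17 recipients and by 3.87 ± 0.13 in Th1 recipients.

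Ccl8, which in mice acts mainly through Ccr8, did not follow Ccl2, Ccl7 and Ccl12. It measured 6.51, 5.42, 6.08, 5.90 and 5.36 in Th1 recipients and 5.35, 5.57, 6.35, 5.49 and 5.66 in Th17 recipients, against 2.39 to 2.60 in naive mice. The recipient groups overlapped over most of their range, and both were far above naive mice. The rise was 3.20 ± 0.17 with Th17 cells and 3.37 ± 0.17 with Th1 cells.

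Ccl5, made by activated T cells and many other cells, had the largest rise of the 9 in both recipient groups. It measured 2.57 to 2.96 in naive mice, then 9.72, 9.69, 9.92, 10.12 and 9.98 in Th1 recipients and 9.68, 9.72, 9.69, 9.29 and 9.12 in Th17 recipients. Here Th1 recipients held the higher mean, and the groups overlapped by 0.02. The log2 rise was 7.15 ± 0.12 in Th1 recipients (142-fold, rank 18 of the 17097 genes) and 6.76 ± 0.12 in Th17 recipients (109-fold, rank 24).

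Ccl3 and Ccl4, the macrophage inflammatory proteins, rose least. Ccl3 was between 2.96 and 3.35 in naive mice, between 4.92 and 5.65 in Th1 recipients and between 4.95 and 5.90 in Th17 recipients. Its rise was 2.24 ± 0.15 and 2.39 ± 0.15, respectively. Ccl4 measured 3.36, 3.61, 3.54, 3.60 and 3.87 in Th1 recipients and 4.20, 3.70, 4.03, 3.36 and 5.07 in Th17 recipients, against 2.63 to 2.82 in naive mice. Th17 recipient 5 was the highest and recipient 4 the second lowest of these 10, so Ccl4 varied more within 1 group than any other ligand did (range 1.71). Its rise was 0.88 ± 0.18 with Th1 cells (limma adjusted p = 0.000301) and 1.36 ± 0.18 with Th17 cells. With the arrays centred on ribosomal protein genes the Th1 rise was 0.40 and no longer passed (adjusted p = 0.0521).

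The receptors rose with their ligands. Ccr1, found on monocytes, macrophages and neutrophils, measured 2.58 to 2.90 in naive mice. It measured 7.31, 6.99, 6.93, 5.45 and 6.07 in Th1 recipients and 7.43, 7.57, 7.55, 7.58 and 7.89 in Th17 recipients. The groups did not overlap, and Th1 recipients 4 and 5 lay apart from the other 3. The rise over naive mice was 4.86 ± 0.21 in Th17 and 3.80 ± 0.21 in Th1 recipients.

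Ccr2, the receptor of inflammatory monocytes, measured 5.86, 5.07, 5.50, 5.17 and 5.93 in Th1 recipients and 6.14, 5.77, 6.35, 6.13 and 6.82 in Th17 recipients, against 2.65 to 2.97 in naive mice. The recipient groups overlapped, with Th17 recipient 2 below 2 of the Th1 recipients. The rise was 3.43 ± 0.15 with Th17 cells and 2.69 ± 0.15 with Th1 cells. The second probe set of Ccr1 rose by 0.58 (Th17) and 0.50 (Th1), and the 3 other probe sets of Ccr2 rose by 2.76, 1.55 and 0.54 (Th17) and by 2.46, 1.16 and 0.44 (Th1), so the size of a receptor's change depends on the probe set.

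**Figure D1:**
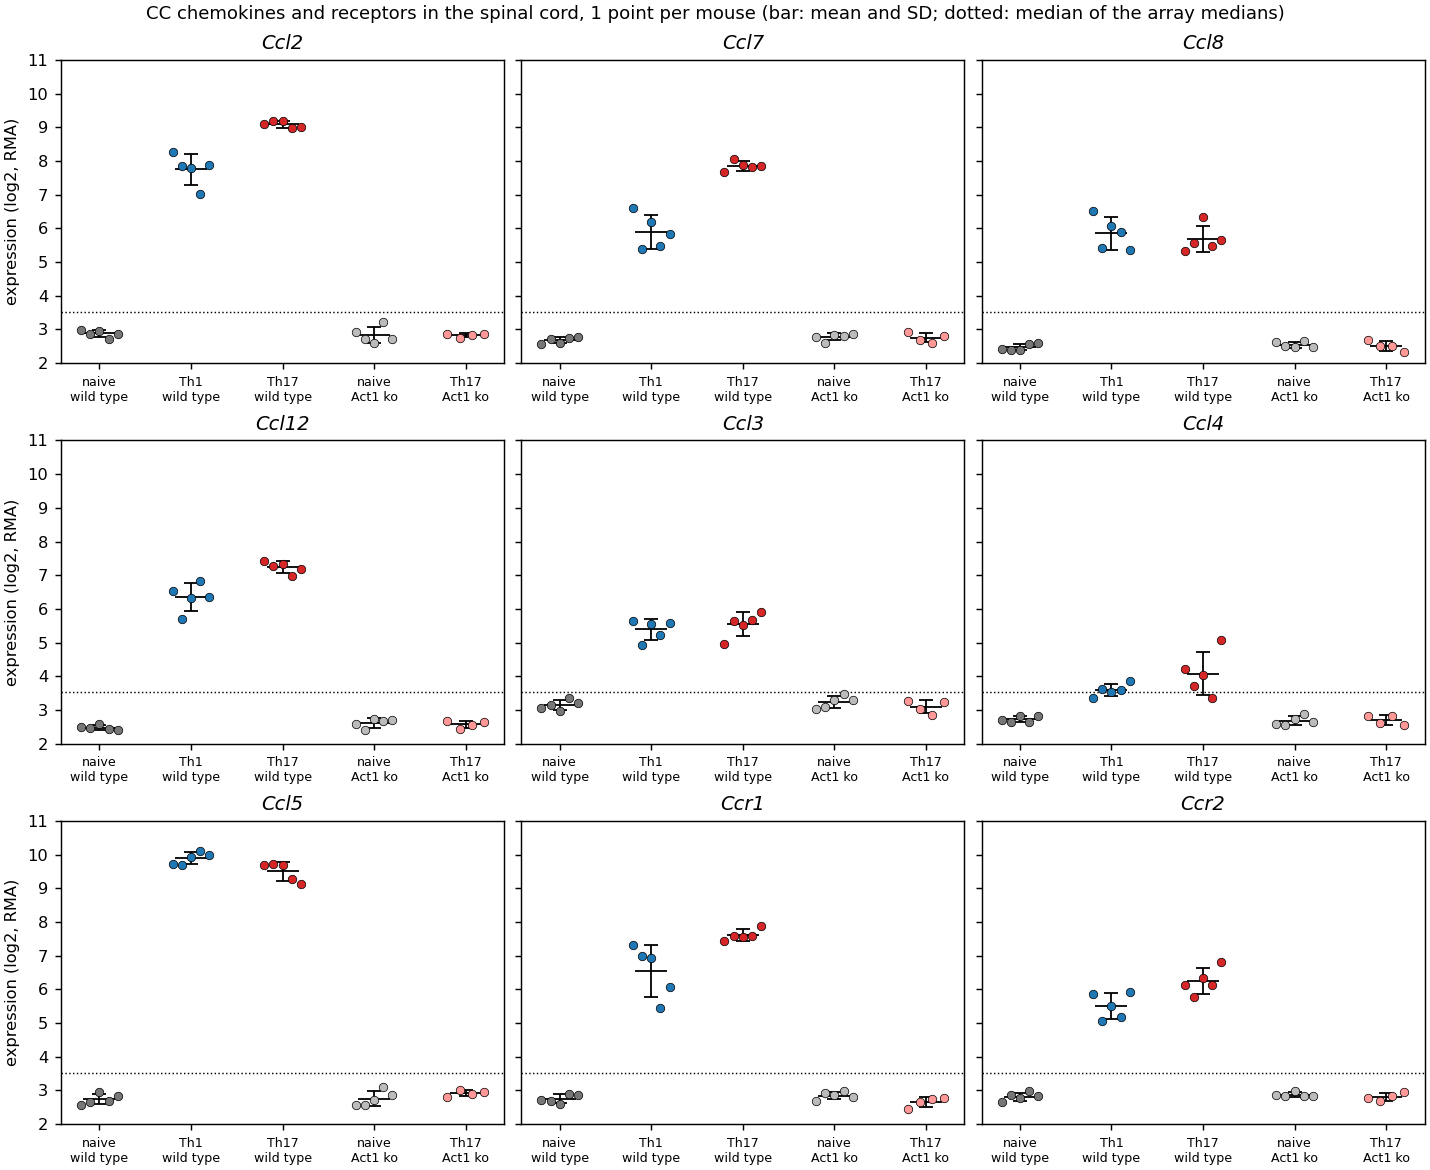
Expression of the 9 genes (vertical axis, log2 RMA values) in the 5 groups, with 1 point per mouse, the mean and SD as bars and the median of the array medians as a dotted line. Wild-type recipients stand above all other mice for every gene, and Th17 recipients labelled Act1 ko lie with the naive mice.

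Against naive wild-type mice, all 9 members rose in Th17 recipients, where 18% of all genes were called higher. All 9 also rose in Th1 recipients, where 16.7% of all genes were called higher. The median member difference was 4.76 in Th17 and 3.37 in Th1 recipients, and the median over all genes was -0.05 and -0.06. Both comparisons use the same naive arrays. In a bulk tissue, more cells of a type and more RNA per cell cannot be told apart. Markers of myeloid cells and T cells moved with the members: 11 of the 11 measured monocyte and macrophage markers and 9 of 10 T cell markers rose in both recipient groups. In naive mice, 4 of the monocyte and macrophage markers and 9 of the T cell markers averaged below the array medians. The marker lists do not separate cells that entered the cord from cells resident in it. The other T cell marker, Thy1, was called lower in both (-0.39 in Th17 and -0.365 in Th1 recipients). The part of infiltrating or resident cells in the members' rise was not tested. Within each letter of the sample codes that holds both groups, every member was higher than in naive mice (4 letters for Th17 and 3 for Th1 recipients).

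Between Th17 and Th1 recipients, which differ in the polarization of the transferred cells, the Ccr2 ligands Ccl2, Ccl7 and Ccl12 and both receptors were higher with Th17 cells. Of the 9 members, 5 were called higher, where 1.91% of all genes were called higher, and 0 were called lower, where 1.09% were. The log2 difference was 1.96 ± 0.15 for Ccl7 (limma adjusted p = 2.15e-09), 1.34 ± 0.15 for Ccl2 (1.07e-06) and 0.90 ± 0.13 for Ccl12 (0.000105). It was 1.06 ± 0.21 for Ccr1 (limma adjusted p = 0.0035) and 0.74 ± 0.15 for Ccr2 (0.00506). The exact permutation test of single genes, two-sided and unadjusted, gave 0.00794 for each of Ccl2, Ccl7, Ccl12 and Ccr1, and 0.0238 for Ccr2. The value 0.00794 is the smallest p that 5 arrays against 5 allow, and the share of all genes that reach it is not given here. Median differences were 0.74 over the members and 0.00 over all genes.

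The other 4 members did not pass, and their intervals bound the difference. Ccl8 differed by -0.17 (95% interval -0.53 to 0.19, from the SE and 19 residual degrees of freedom) and Ccl3 by 0.15 (-0.16 to 0.47). Ccl4 differed by 0.48 (0.10 to 0.86, limma adjusted p = 0.22). Ccl5 was lower with Th17 cells by -0.39 (-0.64 to -0.14), with a limma adjusted p of 0.0894 and an exact permutation p of 0.0159 before any adjustment. Without Th17 recipient 4 the Ccl4 difference was 0.66 and passed (adjusted p = 0.0283), and without Th17 recipient 5 it was 0.23.

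The sample titles hold a code that reads like a well of an array plate, though the labels do not say so, and 3 of its letters hold both a Th17 and a Th1 recipient. Within these 3 letters Ccl7 was higher with Th17 cells by 1.46 to 2.02, Ccl2 by 0.94 to 1.32, Ccl12 by 0.75 to 1.11 and Ccr1 by 0.27 to 1.48. Ccr2 was higher in 2 of the 3 (-0.09 to 0.63) and was not called with the letter as a block (0.54, adjusted p = 0.0836). Ccl3 was lower in all 3 (-0.60 to -0.02), against the pooled direction, Ccl5 was lower in all 3, and Ccl8 was higher in 1. Without Th1 recipients 4 and 5 the Ccr1 difference fell from 1.06 to 0.53 (adjusted p = 0.00902), while Ccl2 stood at 1.13, Ccl7 at 1.80, Ccl12 at 1.06 and Ccr2 at 0.76. Ccr1 and Ccr2 also lost their calls when only the compared arrays were fitted (adjusted p = 0.0869 and 0.0982). The second probe set of Ccr1 differed by 0.08, and the 3 others of Ccr2 by 0.30, 0.39 and 0.10.

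**Figure D2:**
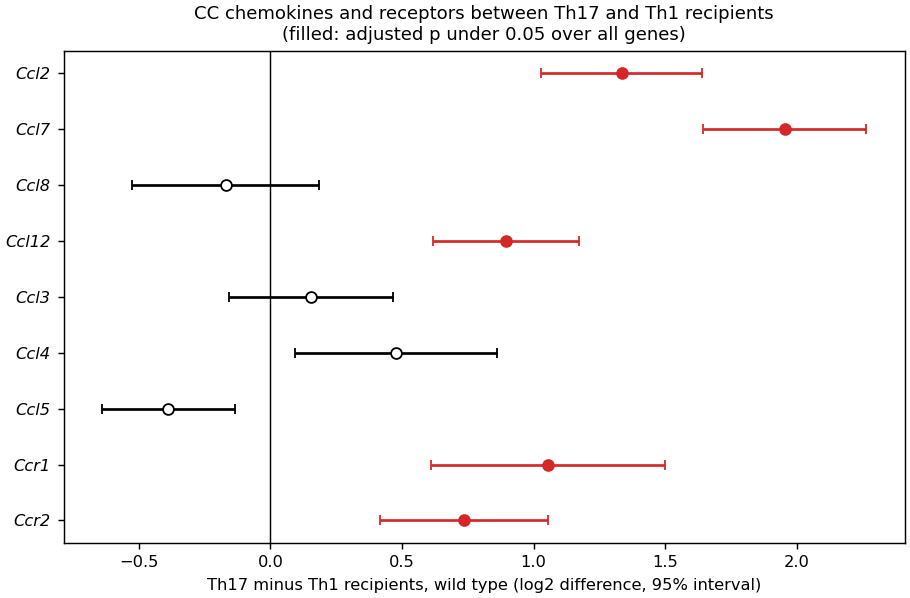
Log2 difference between wild-type Th17 and Th1 recipients (horizontal axis) for each of the 9 genes, with 95% intervals and filled points for those with an adjusted p under 0.05 over all genes. Ccl7 stands furthest to the right at 1.96, and Ccl5 and Ccl8 lie to the left of 0.

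The order of the mice within a group was shared by some members and not by others. Th1 recipient 4 had the lowest Ccl2 (7.01) and Ccr1 (5.45) of its group but the highest Ccl12 (6.83) and Ccl5 (10.12). Th1 recipient 1 had the highest Ccl2, Ccl7, Ccl8, Ccl3 and Ccr1 and the lowest Ccl4. Th1 recipient 2 had the lowest Ccl7, Ccl12, Ccl3, Ccl5 and Ccr2. Th17 recipient 5 had the highest Ccl3, Ccl4, Ccr1 and Ccr2 and the lowest Ccl5. The within-group range was wider in Th1 than in Th17 recipients for Ccl2, Ccl7, Ccl8, Ccl12 and Ccr1, and narrower for Ccl3, Ccl4, Ccl5 and Ccr2.

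Cell type markers differed between the recipient groups as well, where 1.91% of all genes were called higher with Th17 cells and 1.09% lower. Of the monocyte and macrophage markers 4 of 11 were higher with Th17 cells (Plac8, Itgam, Fcgr1 and Cd14), and the mean of the list was 8.75 to 9.16 per array in Th17 and 8.54 to 8.90 in Th1 recipients. None was called lower, but the median difference of the list was -0.07, and 6 of the 11 had a difference below 0, from -0.32 (Chil3) to -0.07 (Ms4a7). Of 10 T cell markers 4 were higher (Cd2, Cd247, Cd4 and Icos), with list means of 5.998 to 6.222 and 5.68 to 5.96. Neutrophil markers differed most, with 6 of 9 higher and list means of 4.87 to 5.49 and 3.43 to 4.39. The mean of the 7 ligands was 6.80 to 7.14 in Th17 and 6.08 to 6.66 in Th1 recipients. Other markers were lower with Th17 cells: Nkg7 of the natural killer cell list by a difference of -1.23 (limma adjusted p = 2.27e-07), the microglial Trem2 by -0.71 (0.0037), and the endothelial Flt1 by -0.56 (0.00826) and Slco1c1 by -0.58 (0.00664). The median difference of the microglia list was -0.36. That of the endothelial list was 0.09. Its other markers had differences above 0, from 0.01 (Cdh5) to 0.59 (Pecam1), and none of these was called. Of 8 astrocyte markers 1 was called, Slc1a2, higher by 0.39 (limma adjusted p = 0.0264), and the median difference of that list was 0.135. Gfap, Aqp4, Slc1a3 and Aldh1l1 also had differences above 0. Gja1, Aldoc and S100b had differences below 0, from -0.15 (Gja1) to -0.05 (S100b). None of the 5 measured B cell markers was above the array medians in any group. The part of these cells in the members' differences was not tested.

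**Figure D3:**
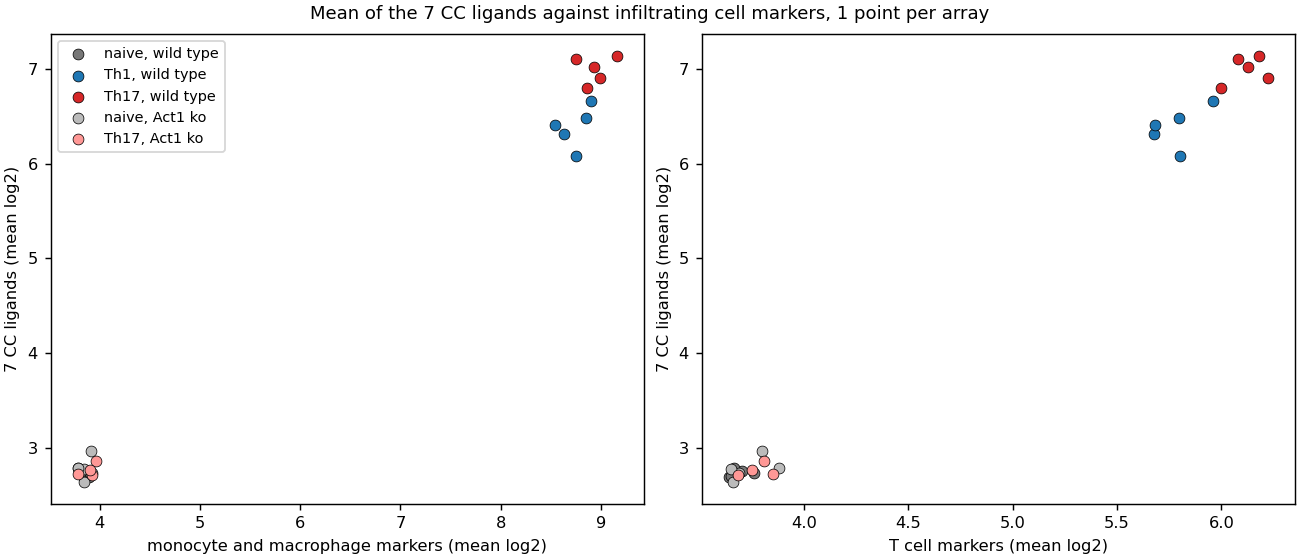
Mean log2 value of the 7 ligands (vertical axes) against the mean of the monocyte and macrophage markers (left) or the T cell markers (right), 1 point per array and 1 colour per group. Wild-type recipients form clusters at the upper right with Th17 above Th1 recipients, and the other 14 arrays lie at the lower left.

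The ko comparison asks how far the response to Th17 cells needs Act1 in the recipient. In Th17 recipients labelled Act1 ko, Ccl2 measured 2.87, 2.74, 2.84 and 2.85, and Ccl7 measured 2.92, 2.69, 2.61 and 2.80. Naive mice of that label lay between 2.61 and 3.22 for Ccl2 and between 2.61 and 2.88 for Ccl7. The ranges of these groups overlapped with each other and with those of naive wild-type mice, and Ccl2 spanned least in the Th17 recipients.

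Of the 9 members, 0 differed between Th17 recipients and naive mice labelled Act1 ko, with differences from -0.19 (Ccr1) to 0.16 (Ccl5) and the smallest limma adjusted p at 0.93. Called genes were 0% of all genes here, 1070 genes had an unadjusted p under 0.05, none of them a member, and 3 of the alternative fits called 1 gene each, also no member. The 95% intervals reached at most 0.43 upward (Ccl4 and Ccl5) and -0.66 downward (Ccr1), so rises of the size seen in wild-type mice lie outside them for every member. All 9 were lower in these mice than in wild-type Th17 recipients, where 17.6% of all genes were called lower. The differences ran from -1.38 ± 0.20 for Ccl4 and -2.45 ± 0.16 for Ccl3 to -6.27 ± 0.15 for Ccl2 and -6.59 ± 0.13 for Ccl5. The response to Th17 cells was itself smaller with the ko label for all 9, where 13.8% of all genes were called lower, with differences of the responses between -1.34 (Ccl4) and -6.61 (Ccl5). These comparisons share the Th17 and naive arrays.

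Naive mice did not show a genotype difference in any of the 9 that passed the test. The differences ran from -0.04 (Ccl2) to 0.14 (Ccl12), the smallest limma adjusted p was 0.886, and 0.585% of all genes were called in either direction. Monocyte and T cell markers mostly followed the members. Of the T cell markers 9 of 10 were called lower in Th17 recipients labelled Act1 ko than in wild-type Th17 recipients. Thy1 was called higher there, by 0.47 (limma adjusted p = 2.54e-05). The T cell genes Cd3d and Cd3g averaged 3.01 and 2.80 in Th17 recipients labelled Act1 ko and 7.15 and 6.89 in wild-type Th17 recipients, and the monocyte list averaged 3.78 to 3.96 and 8.75 to 9.16. Whether the transferred cells entered these cords, and whether the mice had disease when killed, was not tested.

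The chromosomal neighbours of the members did not move as blocks. From Ccl2 to Ccl1 on chromosome 11 the order of genes is Ccl2, Ccl7, Ccl11, Ccl12, Ccl8 and Ccl1, and Ccl11, an eosinophil attractant in the middle of this stretch, rose by 1.10 in Th17 recipients between Ccl7 at 5.18 and Ccl12 at 4.76. The Th17 minus Th1 difference went from 1.34 and 1.96 (Ccl2 and Ccl7) over 0.23 (Ccl11) and 0.90 (Ccl12) to -0.17 (Ccl8) and -0.48 (Ccl1). Ccl1, a ligand of Ccr8, was the one of the 13 other CC ligands measured that differed between recipient groups, and it was lower with Th17 cells (adjusted p = 0.0206). In this comparison 1.09% of all genes were called lower. From Ccl5 to Ccl4 the order is Ccl5, Ccl9, Ccl6, Ccl3 and Ccl4, and the rises in Th17 recipients were 6.76, 6.90, 7.57, 2.39 and 1.36. On chromosome 9, Ccr1 and Ccr2 flank Ccr1l1 and Ccr3, which differed from naive mice by -0.06 and -0.07 in Th17 recipients and did not pass.

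**Figure D4:**
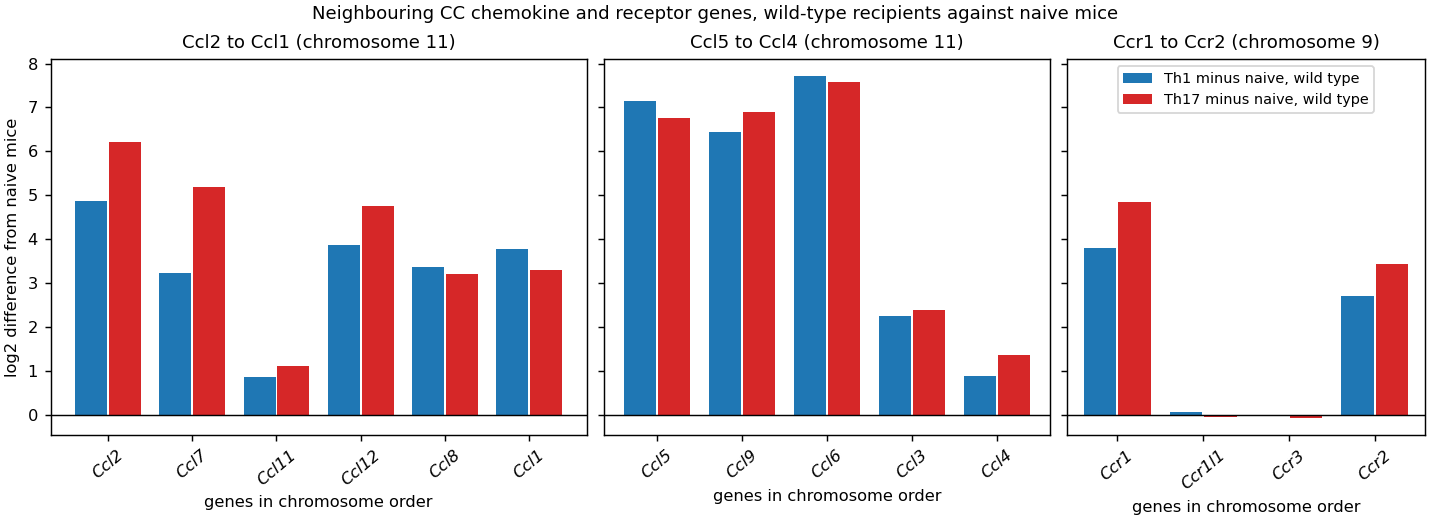
Log2 difference from naive mice (vertical axis) in wild-type Th1 and Th17 recipients for the genes of 3 stretches, in chromosome order. Ccl11, Ccr1l1 and Ccr3 stay low between neighbours that rise by several log2 units.

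Among the 13 other CC ligands, 7 rose and 2 fell in Th17 recipients, and 7 rose and 1 fell in Th1 recipients. Of all genes, 18% were called higher and 43.49% in either direction with Th17 cells, and 16.7% and 40.76% with Th1 cells. The same shares apply to the lists below, and between Th17 and Th1 recipients 3.0% of all genes were called in either direction. The largest rises with Th17 cells were those of Ccl6 (7.57), Ccl9 (6.90), Ccl19 (4.15), a ligand of Ccr7, and Ccl1 (3.30). Ccl27a fell by 1.00 and Ccl25 by 0.42. Ccl20, the ligand of Ccr6 and a known IL-17 target, stood at 3.02 in naive mice and 2.96 in Th17 recipients and did not pass. The median difference of this list was 0.89, against -0.05 over all genes.

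Of the 8 other CC receptor genes measured, Ccrl2 (2.92), Ccr6 (0.52) and Ccr8 (0.41) rose in Th17 recipients, and Ccrl2 and Ccr8 rose in Th1 recipients. Ccr6, which Th17 cells carry, and Ccrl2 exceeded their Th1 recipient levels in Th17 recipients, by 0.64 (adjusted p = 0.00272) and 0.50 (0.0228). Ccr6 and Ccr8 averaged below the array medians in every group, at 3.25 and 3.24 in Th17 recipients, so their differences have little signal over background. Of the atypical receptors, which take up CC ligands without signalling, Ackr2 and Ackr4 were measured and neither passed.

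Downstream of the receptors, 9 of 14 signalling genes rose and 4 fell in Th17 recipients, and 10 rose and 3 fell in Th1 recipients. Rac2, a GTPase of blood cells, rose by 4.71 and Dock2, its activator, by 3.53, while Prkcb fell by 0.68 and Elmo1 by 0.60. None of the 14 differed between Th17 and Th1 recipients by limma at the threshold, where only 3.0% of all genes were called. None did in mice labelled Act1 ko given Th17 cells against their naive controls, where no gene at all was called.

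Cytokines known to induce CC ligands rose too, 8 of 9 in Th17 and 6 of 9 in Th1 recipients. All 9 averaged below the array medians in naive wild-type mice, and 3 did in Th17 and 5 in Th1 recipients, so background signal limits these differences. Il1b rose by 4.38 and 2.10, and Il6 by 1.31 in Th17 recipients, while Il6 differed by 0.33 in Th1 recipients and did not pass. These were the 2 of the 9 with a higher level after Th17 than after Th1 transfer, Il1b by 2.28 (adjusted p = 3.16e-08) and Il6 by 0.98 (0.00299). Ifng, the signature Th1 cytokine, differed by -0.19 and Il17a by 0.40, and neither passed (adjusted p = 0.666 and 0.0573). All 10 measured genes of the NF-kB and interferon factor list rose in both recipient groups, led by Irf7 (5.68 in Th17 recipients), Irf1 (4.98) and Irf8 (4.56). Nfkbiz, an IL-17-induced regulator of NF-kB targets, and Nfkb2 exceeded their Th1 recipient levels in Th17 recipients, by 1.37 (adjusted p = 2.26e-05) and 0.62 (0.00156).

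The genes whose values were most like each member over the 24 arrays were sought among the 10772 genes with a mean above the array medians. The arrays fall into wild-type recipients and the rest, so any gene high in wild-type recipients reaches a high correlation. Il1rn, the interleukin-1 receptor antagonist, was closest to both Ccl2 (Pearson r = 0.995) and Ccr1 (0.996), and Timp1 was among the 3 closest to Ccl2 and Ccl12 (0.995 each). Ccl7 was closest to Ch25h (0.992), Ccl8 to Mcemp1 (0.994), Ccl3 to Hk3 (0.99), Ccl5 to Cfb (0.999) and Ccr2 to Socs3 (0.991). Ccl4 had no gene as close, its best being Ccdc88b at 0.94. The 14 recipient arrays keep this split, because 4 of them are the Th17 recipients labelled Act1 ko, in which no gene was called against naive mice of that label. Over these 14 arrays Il1rn was again closest to Ccr1 (0.995), Cfb to Ccl5 (0.998), Mcemp1 to Ccl8 (0.993) and Hk3 to Ccl3 (0.992). For the other members the closest gene changed: it was Glipr2 for Ccl2 (0.994), Car13 for Ccl7 (0.989) and Tmem176b for Ccl12 (0.995). It was Clec14a for Ccl4 (0.922) and Myd88 for Ccr2 (0.989).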

How the data were processed

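Spinal cord RNA of 24 mice was measured on Affymetrix GeneChip HT-MG-430PM arrays, and groups were taken from the labels. The authors deposited log2 values of 45118 probe sets made by RMA, which corrects background, equalizes the array distributions and summarises each probe set; its version is not given in the sources used here. Such values would hide a change common to all genes of a group. Of the probe sets, 28898 have 1 gene symbol in the platform annotation, and 551 with several and 15669 not listed were not used. The brightest probe set over all arrays represented each of 17097 genes. Differences were fitted with limma 3.58.1 (R 4.3.3; lmFit, eBayes) over all 24 arrays without a block, two-sided, with Benjamini-Hochberg adjustment over all genes and calls at an adjusted p under 0.05. The script was tested on simulated data. Single members were also tested by exact permutation (scipy 1.17.1). Precision depends on the number of arrays. Arrays of 1 group had correlations of 0.986 to 0.997 and none were identical. Labels and methods describe separate mice.

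The members and gene lists were chosen with earlier results of these data known. Named were all members, the called genes of each list with the largest differences, and the genes with the highest Pearson r to a member. A few others were named after their values were seen: Ccl20, Ifng, Il17a, Ccl11, Ccr1l1, Ccr3 and the markers. The promoters meant to be shown were those of Ccl2 and Ccl7, and those shown were chosen among the members in the promoter table. Alternatives were the mean of all probe sets, a filter on dim genes, centring on array medians or ribosomal protein genes, trend and robust eBayes, the compared groups alone, replicate and title letter blocks, the methods' t-test, an exact Mann-Whitney test, and leaving out single arrays or Th1 recipients 4 and 5.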

Additional observations from a re-analysis of the deposited data

Results flagged for a closer look

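The response to Th17 cells differed between the genotype labels for every member by the limma test of the difference itself. In this test 13.8% of all genes were called lower. No gene was called between Th17 recipients and naive mice labelled Act1 ko, so the differences mostly repeat the wild-type rise. The log2 response in mice labelled Act1 ko minus that in wild-type mice was -6.23 for Ccl2, -5.21 for Ccl7, -4.81 for Ccl12 and -3.24 for Ccl8. It was -6.61 for Ccl5, -2.53 for Ccl3 and -1.34 for Ccl4. For the receptors it was -5.05 (Ccr1) and -3.49 (Ccr2). The largest adjusted p among the 9 was 0.000281, for Ccl4.

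1 naive mouse labelled Act1 ko had a Ccr2 value of 2.99 that lay apart from the other 4 of its group, with a gap of 0.747 of the group's range. It was 1 of 45 groups examined in this way, of which chance sets apart about 1 in 20, and the value lies below the array medians.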

How the results depend on the processing

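Against naive mice and between the genotype labels in Th17 recipients, all members kept their direction and their calls under the alternatives run, except Ccl4 in Th1 recipients with ribosomal centring (0.40, adjusted p = 0.0521) and in the dim-gene filter, which removed Ccl4. Centring on array medians moved the median of all genes to -0.31 in both recipient groups, and centring on 61 ribosomal protein genes moved it to -0.47 (Th17) and -0.54 (Th1), from -0.05 and -0.06. Genes called between Th17 recipients and naive mice numbered 13337 and 14908 with these centrings, against 7436, and between Th1 recipients and naive mice 13284 and 15291, against 6969. Between the genotype labels they numbered 13331 and 14317 in Th17 recipients, against 7214, and 9104 and 10985 for the difference of responses, against 5479. Between naive mice of the 2 labels 100 genes were called, 35 with the title letter as a block, 11 by the methods' t-test after adjustment and 0 by the exact Mann-Whitney test, no member among them.

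The count of members called between Th17 and Th1 recipients was 5 and depended on the test. It was 3 with only the compared groups fitted (282 genes in all, against 513), 4 with the title letter as a block and 5 to 6 with single arrays left out. The methods' t-test gave 6 members and 1843 genes at an unadjusted p under 0.05, and 1 member (Ccl7) and 69 genes after Benjamini-Hochberg adjustment. The exact Mann-Whitney test gave 0 members and 0 genes, with adjusted p-values of 0.241 or more for the members, since the smallest p of 5 arrays against 5 survives the adjustment only where many genes reach it. With the replicate block 5 members were called, and it changed no other call of a member. The deviations of same-numbered arrays from their group means had correlations of -0.29 to 0.437 (46 pairs, median 0.041). Of these pairs 16 were above 0.1, and the median for arrays of different numbers was 0.014. These correlations cannot tell whether the numbers pair the mice.

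Reversed directions were seen only in differences that passed no test. With the title letter as a block these were Ccl3 between Th17 and Th1 recipients (-0.041), Ccl2 (0.154), Ccl7 (0.183), Ccl3 (0.12), Ccr1 (0.287) and Ccr2 (0.348) between Th17 recipients and naive mice labelled Act1 ko, and Ccl5 (-0.048), Ccr1 (-0.069) and Ccr2 (-0.079) between naive mice. With ribosomal centring Ccl4 turned to -0.035 in mice labelled Act1 ko. With single arrays left out, the difference between Th17 recipients and naive mice labelled Act1 ko ranged from -0.072 to 0.082 for Ccl2, -0.083 to 0.019 for Ccl7, -0.097 to 0.019 for Ccl8, -0.099 to 0.003 for Ccl12 and -0.022 to 0.072 for Ccl4. That between naive mice ranged from -0.137 to 0.016 for Ccl2 and from -0.067 to 0.076 for Ccl5. The cause of these changes was not tested. Values below the array medians, which all members had in naive mice, have little signal over background.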
